A study of Mus musculus with 4 samples.

Results

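The 4T1-HM and 4T1-LM clones were compared after both had been grown with deferasirox (DFX), an orally active iron chelator, at 50 μM for 48 h. Both are lines grown from single cells of 4T1, a mouse mammary cancer cell line used as a model of triple-negative breast cancer (TNBC), and were picked for a high (HM) and a low (LM) ability to metastasize. The libraries HM_DFX50 and LM_DFX50 were set against each other, and the libraries HM_Ctrl and LM_Ctrl, from the same clones grown with an equivalent amount of the solvent DMSO, were read beside them. Each condition had 1 library and each metastatic class was 1 clone, so no difference could be tested and clone, culture and library cannot be told apart. In bulk RNA, fewer cells that express a gene and less RNA of it per cell cannot be told apart either. The values were FPKM, that is, fragments scaled to the exon length of the gene and to the size of the library. Genes with FPKM of at least 1 in HM_DFX50 or LM_DFX50 were taken, which gave 11746 of the 49585 genes measured. Of these, 10539 reached 1 in both libraries, 588 in HM_DFX50 alone and 619 in LM_DFX50 alone. The gene nearest above the limit was Nr2f1, with FPKM of 1.00 in LM_DFX50, and the nearest below it was Gm10516, with 0.9998.

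Iron is a cofactor of the prolyl hydroxylases that mark HIF, the hypoxia-inducible transcription factor, for destruction, and of ribonucleotide reductase, which makes the building blocks of DNA. Chelators therefore act on cells partly like low oxygen and slow their division. Cancer cells can also answer a loss of iron with stress programs, among them the unfolded protein response of the endoplasmic reticulum (ER), and the clones of a tumor line can differ in which of these programs they run.

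The clone difference was expressed as the log2 ratio of FPKM + 1, HM_DFX50 over LM_DFX50, and a gene was called higher or lower in HM_DFX50 at 2-fold or more. Where a fold is given, it is the plain ratio of FPKM with its exact (Clopper-Pearson) 95% interval from the recovered fragments, which covers counting error only. The libraries held 14363066 fragments (HM_DFX50), 21883854 (LM_DFX50), 16745608 (HM_Ctrl) and 15731521 (LM_Ctrl). A member gene had a median of 476 fragments in HM_DFX50 and 799.5 in LM_DFX50. Markers of carcinoma cells were present, with FPKM of Epcam at 13.5 against 22.6 and of Cdh1, E-cadherin, at 43.7 against 59.9 in HM_DFX50 against LM_DFX50. Krt5, a basal keratin, and Ehf were listed at 0 in all 4 libraries. As a model of TNBC, Pgr was listed at 0, Esr1 was at most 0.529 in any library, and Erbb2 was 3.8 in HM_DFX50 and 4.71 in LM_DFX50. Of the markers of leukocytes, fibroblasts, endothelium and red cells, 2 reached FPKM of 1 under DFX. These were Cd68, a lysosomal glycoprotein of macrophages (37.4 against 83.1), and the growth factor receptor Pdgfra (4.51 against 5.5). In HM_DFX50 against LM_DFX50, FPKM summed to 38.7 against 83.3 over the 17 leukocyte markers, to 4.99 against 5.74 over the 10 of fibroblasts and to 0.229 against 0.0486 over the 10 of endothelium and red cells. Ptprc, Lyz2, Col1a1, Pecam1 and Hba-a1 all stayed under 0.2 in both DFX libraries. A pair of annotations that overlap ribosomal RNA repeats, Gm26917 and Gm42418, took 0.565% of fragments in HM_DFX50 and 0.170% in LM_DFX50, against 0.0754% and 0.0604% in HM_Ctrl and LM_Ctrl. Whether this unequal share had a part in the results was not tested.

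Under DFX, 419 genes were higher in HM_DFX50 and 640 were lower, which is 3.57% and 5.45% of the members (9.02% together). The counts called in each gene list below are to be read beside these shares. In the DMSO libraries the same genes gave 374 higher (3.18%) and 296 lower (2.52%), 5.7% together. The members were taken by their DFX values alone, whereas 12083 genes reached FPKM of 1 in HM_Ctrl or LM_Ctrl. A gene under 1 in both DFX libraries could not be called in DMSO, so the DFX and DMSO shares are not on equal terms. The median log2 ratio of all members was -0.06 under DFX, with quartiles of -0.39 and 0.28, and 0.01 in DMSO, with quartiles of -0.23 and 0.28. Of the 10287 protein-coding members, 268 were higher and 538 lower. Among the 5881 genes whose larger DFX value was 10 or above, 139 were higher and 297 lower. At 4-fold the counts were 36 and 59. The DFX and DMSO comparisons share no library, and over the members their ratios had the same sign in 64.0% (Pearson's r of 0.47 and Spearman's rho of 0.40 across genes, which are not replicates).

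Part of the clone difference was there with and without DFX. Of the 640 genes lower in HM_DFX50, 167 were lower in HM_Ctrl too, which is 26.1% of the DFX list and 56.4% of the 296 genes of the DMSO list. Of the 419 higher genes, 101 were higher in DMSO too, 24.1% of the DFX list and 27.0% of the DMSO list. In these 2 classes the median log2 ratio was -1.62 under DFX and -1.53 in DMSO for the lower genes, and 1.37 and 1.60 for the higher genes. Since the classes hold only genes called in both states, both medians lie beyond the 2-fold line by choice, and they are a description. The other called genes passed the 2-fold line under DFX and not in DMSO, or passed it the other way round in DMSO. Within 2-fold does not mean equal, and some genes only just crossed the line. Snai1, for example, had a log2 ratio of -1.04 under DFX and -0.99 in DMSO. There were 456 genes lower in HM_DFX50 and within 2-fold in DMSO, and 304 genes higher in HM_DFX50 and within 2-fold in DMSO. In the remaining 31 genes, 14 higher and 17 lower in HM_DFX50, the DMSO call was opposite.

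**Figure D1:**
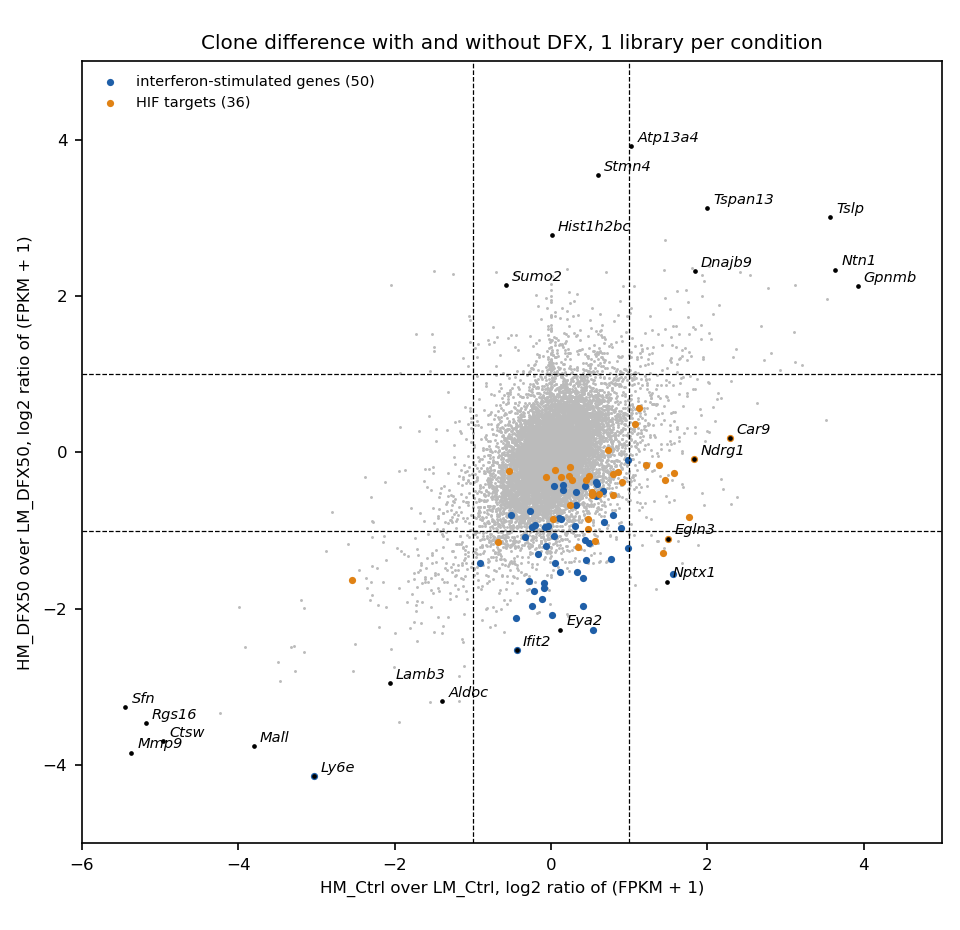
Each point is 1 of the 11746 genes; the horizontal axis is the log2 ratio of FPKM + 1 of HM_Ctrl over LM_Ctrl and the vertical axis that of HM_DFX50 over LM_DFX50, with 1 library per condition and dashed lines at 2-fold. The 50 interferon-stimulated genes (blue) all lie below 0 on the vertical axis, HIF targets (orange) lie right of and below the centre, and Ly6e, Mmp9 and Sfn lie far down at the left.

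The genes of lower level in HM_DFX50 were led by secreted, surface and epithelial genes, many of them low in both HM libraries. By the size of the log2 ratio among well-measured protein-coding genes, the first was Ly6e (ENSMUSG00000022587; mm10 chromosome 15, 74955051 to 74959905), a lipid-anchored surface protein inducible by interferon. Its FPKM was 0.773 in HM_DFX50, 30.2 in LM_DFX50, 0.978 in HM_Ctrl and 15.1 in LM_Ctrl. Both HM libraries were thus under 1 and both LM libraries above 10, and the LM level under DFX was 39.1-fold (interval 28.8 to 54.4) that of HM. Mmp9 (ENSMUSG00000017737; mm10 chromosome 2, 164940780 to 164955850) encodes gelatinase B, a protease that degrades basement membrane. Its FPKM was 0.748 in HM_DFX50, 24 in LM_DFX50, 1.64 in HM_Ctrl and 108 in LM_Ctrl. The HM level was low in both states, and the clones were further apart in DMSO (log2 ratio -5.37) than under DFX (-3.84).

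The same low level in both HM libraries was seen in further genes of this group. Mall, a membrane protein of the MAL family, had FPKM of 0.0694 in HM_DFX50, 13.5 in LM_DFX50, 0.0298 in HM_Ctrl and 13.4 in LM_Ctrl, from 2 fragments in HM_DFX50 and 592 in LM_DFX50, a ratio of 194-fold (interval 53.5 to 1608) in favor of LM. Ctsw, the cysteine protease cathepsin W, was at 1.24 in HM_DFX50, 27.9 in LM_DFX50, 2.52 in HM_Ctrl and 109 in LM_Ctrl. Rgs16, which switches off G protein signals, was at 0.149 in HM_DFX50, 11.6 in LM_DFX50, 0.153 in HM_Ctrl and 41 in LM_Ctrl, so that under DFX the LM level had come down toward the HM level without reaching it. Slc39a4, the zinc importer ZIP4, and Sfn, the cell cycle regulator 14-3-3 sigma of epithelial cells, showed this too, with FPKM in HM_DFX50 against LM_DFX50 of 0.125 against 10.4 and 1.73 against 25, and in DMSO of 0.0537 against 18.8 and 1.18 against 94.1. Sfn shares 26.8% of its 31-base words with other genes, so its count is less certain.

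Cd74, the invariant chain that guides MHC class II molecules, was low in both HM libraries too, with FPKM of 1.43 in HM_DFX50, 28.1 in LM_DFX50, 0.593 in HM_Ctrl and 16 in LM_Ctrl. For other leading genes the gap was wider under DFX than in DMSO. Pgf, placental growth factor, was at 0.22 in HM_DFX50, 12.4 in LM_DFX50, 0.151 in HM_Ctrl and 3.42 in LM_Ctrl, and the 5 fragments in HM_DFX50 set its ratio at 56.2-fold (interval 23.9 to 174) in favor of LM. Lgals9, the sugar-binding protein galectin-9, was at 4.46 in HM_DFX50, 48.6 in LM_DFX50, 5.34 in HM_Ctrl and 13.3 in LM_Ctrl. In Cd74, Pgf and Lgals9 LM_DFX50 held the highest of the 4 values. Aldoc, a glycolytic aldolase, behaved likewise with 1.66 in HM_DFX50, 23.2 in LM_DFX50, 3.37 in HM_Ctrl and 10.4 in LM_Ctrl. Ptges, which makes prostaglandin E2, was at 2.0 in HM_DFX50 and 20.7 in LM_DFX50 (log2 ratio -2.86, DMSO -1.83), Serpinb6b, a protease inhibitor, at 0.886 in HM_DFX50 and 12.8 in LM_DFX50 (-2.87, DMSO -1.18), and the heparan sulfate proteoglycan Sdc3 at 1.24 in HM_DFX50 and 14.6 in LM_DFX50 (-2.79, DMSO -2.54).

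The genes of higher level in HM_DFX50 were led by Atp13a4 (ENSMUSG00000038094; mm10 chromosome 16, 29395853 to 29544864), a P-type transport ATPase. Its FPKM was 19 in HM_DFX50, 0.323 in LM_DFX50, 1.04 in HM_Ctrl and 0 in LM_Ctrl, so only HM_DFX50 was above 2, and the HM level was 58.9-fold (interval 43.7 to 81.4) that of LM. Stmn4 (ENSMUSG00000022044; mm10 chromosome 14, 66344296 to 66361680), a stathmin that binds tubulin, showed the same pattern, with 26.3 in HM_DFX50, 1.34 in LM_DFX50, 0.561 in HM_Ctrl and 0.0332 in LM_Ctrl. Tspan13, a tetraspanin of the plasma membrane, was at 17 in HM_DFX50, 1.07 in LM_DFX50, 5.53 in HM_Ctrl and 0.642 in LM_Ctrl, a difference of 15.9-fold (interval 12.1 to 21.2). For these 3 genes the highest of the 4 values was that of HM_DFX50.

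Tslp, an epithelial cytokine that acts on dendritic cells, was a gene of the HM clone in both states. Its FPKM was 30.4 in HM_DFX50, 2.9 in LM_DFX50, 165 in HM_Ctrl and 13 in LM_Ctrl, lower under DFX in both clones, with the clones about as far apart (log2 ratio 3.01, DMSO 3.57). Gpnmb, a lysosomal and melanosomal glycoprotein, was at 10.4 in HM_DFX50, 1.6 in LM_DFX50, 15.8 in HM_Ctrl and 0.107 in LM_Ctrl, and here the gap narrowed from 3.92 to 2.13 in log2 ratio. Mt2, a metallothionein that binds zinc and copper, was the most abundant of the leading genes, with 823 in HM_DFX50, 222 in LM_DFX50, 421 in HM_Ctrl and 94.4 in LM_Ctrl. Its exons overlap those of RP23-98C9.5 on the other strand over 73.5% of their length, and the 2 cannot be separated without strand, and it shares 58.1% of its words with other genes.

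Among the other genes of the 15 with the largest positive ratio, Dpp7, a lysosomal peptidase, was at 10.1 in HM_DFX50 and 1.16 in LM_DFX50, and Ube2ql1, of the ubiquitin-conjugating enzyme family, at 28.8 in HM_DFX50 and 5.78 in LM_DFX50. Aloxe3, a lipoxygenase of the epidermis, was at 12.9 in HM_DFX50 and 3.14 in LM_DFX50 and Gpatch3 at 11 in HM_DFX50 and 2.52 in LM_DFX50. Aoc2, an amine oxidase, and Apoe, a lipid carrier, were alike in being equal between the clones in DMSO. Aoc2 was at 14.8 in HM_DFX50, 3.02 in LM_DFX50, 1.46 in HM_Ctrl and 1.57 in LM_Ctrl, and Apoe at 14.5 in HM_DFX50, 3.31 in LM_DFX50, 1.45 in HM_Ctrl and 1.22 in LM_Ctrl. Hist1h2bc, a histone H2B gene, was at 14.9 in HM_DFX50, 1.3 in LM_DFX50, 6.17 in HM_Ctrl and 6.13 in LM_Ctrl, and Sumo2, a ubiquitin-like modifier, at 31.3 in HM_DFX50, 6.34 in LM_DFX50, 7.95 in HM_Ctrl and 12.4 in LM_Ctrl. In both, the level was highest in HM_DFX50 and lowest in LM_DFX50. They share 33.5% and 22.5% of their 31-base words with other genes, so reads could be split with near copies.

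**Figure D2:**
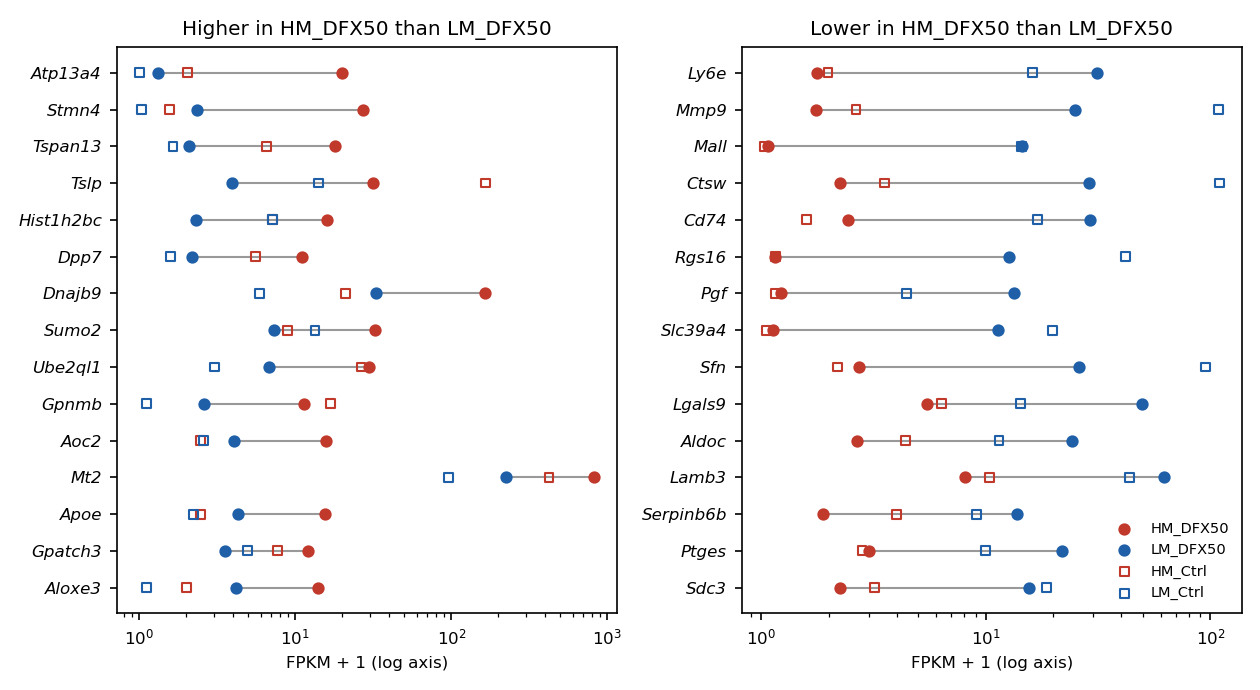
FPKM + 1 on a log axis in the 4 libraries for the 15 protein-coding genes with the largest positive (left) and negative (right) log2 ratio of HM_DFX50 over LM_DFX50; filled circles are DFX and open squares DMSO libraries, HM in red and LM in blue, and each gray line joins the DFX pair. For Ly6e, Mall, Rgs16 and Slc39a4 both HM libraries sit together at the low end, whereas for Atp13a4, Stmn4 and Aoc2 only HM_DFX50 stands to the right.

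A gene group that ran one way between the chelated clones was that of the interferon-stimulated genes, which cells transcribe on exposure to interferon and many of which block viral growth. Of the 50 members of this list, 27 were lower in HM_DFX50 and 0 higher, against 5.45% lower among all members, and no ratio of the 50 was above 0. The median log2 ratio was -1.11, against -0.06 over all genes. In the DMSO libraries the same list had a median of 0.12, with 31 of 50 ratios above 0, 1 gene called higher (Slfn2) and 1 called lower (Ly6e). The levels of most were higher under DFX than in DMSO in both clones. By 2-fold or more, 48 of the 50 were higher in LM_DFX50 than in LM_Ctrl, against 7.65% of all genes, and 37 were higher in HM_DFX50 than in HM_Ctrl, against 7.47%. The median log2 ratio of DFX over DMSO was 3.03 in LM and 1.71 in HM.

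Ifit2 and Ifit3 encode cytoplasmic proteins that bind viral RNA. Ifit2 had FPKM of 5.53 in HM_DFX50, 36.7 in LM_DFX50, 4.15 in HM_Ctrl and 5.99 in LM_Ctrl, and Ifit3 of 13.2 in HM_DFX50, 67.6 in LM_DFX50, 1.13 in HM_Ctrl and 0.474 in LM_Ctrl. For Ifit2 the LM_DFX50 value stood alone and the other 3 were within 4.15 to 5.99, while for Ifit3 both DFX values were above both DMSO values. Oas1g, which makes the messenger 2',5'-oligoadenylate on sensing double-stranded RNA, was at 4.76 in HM_DFX50, 23.9 in LM_DFX50, 0.766 in HM_Ctrl and 1.41 in LM_Ctrl. The highest of its 4 values was that of LM_DFX50. Of their 31-base words, Ifit3 and Oas1g share 61.8% and 55.1% with other genes. Further members, named after their values were seen, ran the same way: the antiviral effector Bst2 at 77.3 against 174 (log2 ratio -1.16), the transcription factor Irf7 at 14.8 against 39.8 (-1.37), the GTPase Igtp at 13 against 39.4 (-1.53), the deubiquitinase Usp18 at 12.9 against 41.2 (-1.60) and the abundant membrane protein Ifitm3, not called, at 288 against 554 (-0.94).

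The promoters of these genes are shown for the motif that interferon response factors bind, since the genes moved together. The motif searched was GAAA, any 2 bases and GAAA again, on both strands, from 250 bases before to 50 after the start in RefSeq promoters of GRCm38.p6, which were found for 8227 of the 11746 members. It was in 21 of the 36 promoters found for the list (58.3%), in 8.48% of those of all genes lower in HM_DFX50, in 1.38% of those higher, and in 3.04% of all 8227. The lower genes include members of the list, so their share is not separate from it. The 220 bases before the start of Ifit3 (chr19:34583309-34583528, plus strand), Oas1g (chr5:120887614-120887833, minus strand) and Igtp (chr11:58199336-58199555, plus strand) follow, each with the motif in capitals. In Oas1g, 2 matches overlap.
Ifit3: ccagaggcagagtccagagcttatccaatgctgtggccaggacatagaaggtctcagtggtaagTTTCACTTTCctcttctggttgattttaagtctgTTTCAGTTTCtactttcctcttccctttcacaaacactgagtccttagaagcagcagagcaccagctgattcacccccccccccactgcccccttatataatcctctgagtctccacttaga
Oas1g: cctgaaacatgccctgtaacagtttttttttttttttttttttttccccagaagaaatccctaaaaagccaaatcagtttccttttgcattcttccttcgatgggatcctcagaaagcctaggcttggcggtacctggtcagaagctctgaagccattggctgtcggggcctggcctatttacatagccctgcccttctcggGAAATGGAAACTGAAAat
Igtp: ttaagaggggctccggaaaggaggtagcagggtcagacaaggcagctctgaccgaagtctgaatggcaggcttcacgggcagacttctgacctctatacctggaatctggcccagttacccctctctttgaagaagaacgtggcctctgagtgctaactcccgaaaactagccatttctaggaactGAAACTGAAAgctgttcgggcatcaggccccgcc
Ifit2, with the largest ratio of the interferon-stimulated genes that were within 2-fold in DMSO, is not among the 21 with a match. Whether its promoter was among the 36 found is not given here. The matches are given as a description.

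Presentation of peptides by MHC class I, itself inducible by interferon, ran lower in HM_DFX50. Of 23 members, 13 were lower and 1 higher, against 5.45% and 3.57% of all members, 9 were not called, and the median log2 ratio was -1.13. In DMSO 4 were lower, with a median of -0.46. Among the subunits of the immunoproteasome, which cuts the peptides, Psmb8 was at 10.2 in HM_DFX50, 47.4 in LM_DFX50, 8.91 in HM_Ctrl and 26 in LM_Ctrl, and Psmb9 at 0.533 in HM_DFX50, 4.9 in LM_DFX50, 0.849 in HM_Ctrl and 1.72 in LM_Ctrl. For Psmb8 both HM values were below both LM values. Tap1, a subunit of the peptide pump of the ER, was at 4.63 in HM_DFX50, 25.1 in LM_DFX50, 1.13 in HM_Ctrl and 2.51 in LM_Ctrl, the highest value being again that of LM_DFX50. Of the heavy chains, the nonclassical H2-Q6 was at 13.6 in HM_DFX50 and 59.9 in LM_DFX50, although it shares 51.8% of its words with related genes, and the classical H2-D1, named after its value was seen, at 178 in HM_DFX50 and 413 in LM_DFX50 (log2 ratio -1.21). The light chain B2m was at 565 in HM_DFX50 and 948 in LM_DFX50, which did not reach 2-fold (-0.75). The member that ran the other way was Calr, calreticulin, an ER chaperone that also loads the heavy chain, at 406 in HM_DFX50, 155 in LM_DFX50, 264 in HM_Ctrl and 239 in LM_Ctrl.

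**Figure D3:**
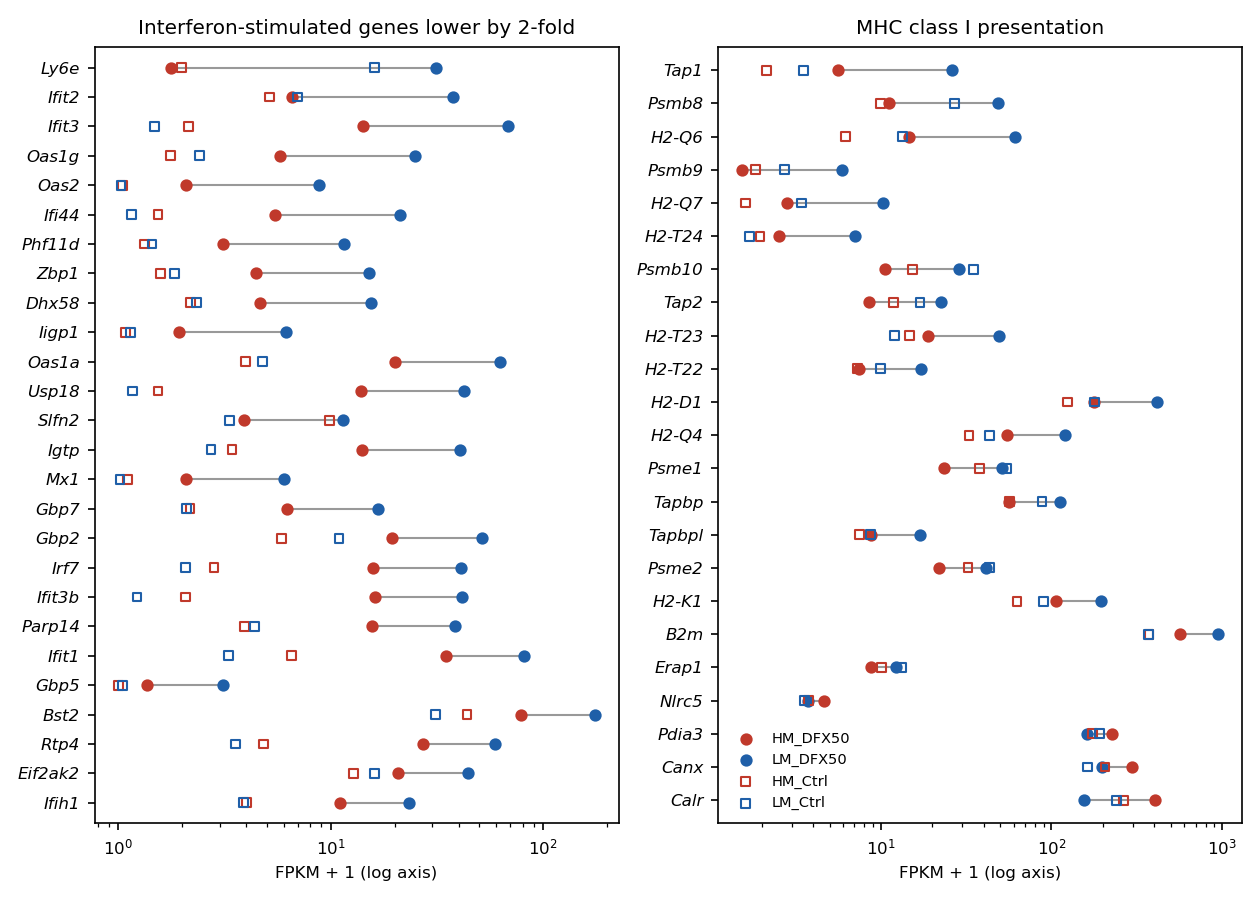
FPKM + 1 on a log axis in the 4 libraries for 26 of the 27 interferon-stimulated genes lower in HM_DFX50 by 2-fold (left) and all 23 members of the MHC class I list (right); filled circles are DFX and open squares DMSO libraries, HM in red and LM in blue. On the left the blue circle, LM_DFX50, is furthest right in every row, and on the right Calr, Canx, Pdia3 and Nlrc5 have the red circle on the right.

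Targets of HIF, the transcription factor that iron chelation stabilizes, ran in opposite directions between the clones with and without DFX, a difference between the states that was not tested. Of 36 members, 0 were higher and 6 lower in HM_DFX50, against 3.57% and 5.45% of all members, with a median log2 ratio of -0.35. In DMSO 11 were higher in HM and 1 lower, with a median of 0.55. The ratio was above 0 for 4 of 36 genes under DFX and for 32 of 36 in DMSO. Under DFX the levels of most members differed by less than 2-fold between the clones. Between the states, 26 of 36 were at least 2-fold higher with DFX in LM, against 7.65% of all genes, and 6 of 36 in HM, against 7.47%, and the median log2 ratio of DFX over DMSO was 1.59 in LM and 0.40 in HM. The core of the site that HIF binds, ACGTG on either strand, was in 16 of the 30 promoters found for the list (53.3%) and in 26.8% of all 8227. Lists with a median above 0 under DFX held it too, with 38.7% for the ER unfolded protein response and 37.5% for MAPK feedback and immediate early genes. Of other lists with a median below 0, it was in 31.6% for MHC class I, 8.33% for the interferon-stimulated genes and 0 of 12 for integrins and laminins.

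Egln3, a prolyl hydroxylase that needs iron and is itself a HIF target, named after its value was seen, turned round, with FPKM of 32.8 in HM_DFX50, 71.7 in LM_DFX50, 85.9 in HM_Ctrl and 29.8 in LM_Ctrl. Ankrd37, an ankyrin repeat protein induced by hypoxia, did so too, with 7.6 in HM_DFX50, 20.1 in LM_DFX50, 5.94 in HM_Ctrl and 1.57 in LM_Ctrl, and 21.4% of its words are shared. In both, HM held the higher value in DMSO and LM the higher value under DFX. Stc2, a secreted glycoprotein, was at 7.59 in HM_DFX50 and 18.8 in LM_DFX50 (log2 ratio -1.20, DMSO 0.34), and the repressor Bhlhe40 at 39.6 in HM_DFX50 and 88.6 in LM_DFX50 (-1.14, DMSO -0.68). The best known targets, named after their values were seen, came close together under DFX after standing apart in DMSO. Ndrg1, induced by hypoxia and chelators, was at 577 in HM_DFX50, 613 in LM_DFX50, 177 in HM_Ctrl and 49.1 in LM_Ctrl. The glucose carrier Slc2a1 was at 207 in HM_DFX50, 231 in LM_DFX50, 107 in HM_Ctrl and 40.3 in LM_Ctrl, and the carbonic anhydrase Car9 at 28.3 in HM_DFX50, 24.8 in LM_DFX50, 35.6 in HM_Ctrl and 6.51 in LM_Ctrl.

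Some glycolytic genes are HIF targets too. Of 19 members, 2 were lower in HM_DFX50, namely Aldoc and Ldhb, and the same 2 were lower in DMSO, where 3 others were higher. The median was 0.34 in DMSO and -0.33 under DFX. Ldhb, the heart subunit of lactate dehydrogenase, was listed at 0 in HM_DFX50 and at 4.86 in LM_DFX50, with 0.038 in HM_Ctrl and 8.3 in LM_Ctrl in DMSO. It shares 33% of its words with other genes. The muscle subunit Ldha, also named after its value was seen, was far more abundant and near equal, at 710.0 in HM_DFX50 and 884 in LM_DFX50. Lysosomal genes, of which 17 of 62 had been higher in HM in DMSO (median 0.65), no longer stood apart under DFX, with 1 higher and 4 lower and a median of -0.13. The hyaluronidase Hyal1 was called lower under DFX and higher in DMSO, at 2.1 in HM_DFX50, 9.03 in LM_DFX50, 2.25 in HM_Ctrl and 0.539 in LM_Ctrl; its exons overlap those of Nat6 over 50.8% of their length, and 50.7% of its words are shared. The acid phosphatase Acp5 was lower under DFX and within 2-fold in DMSO, at 7.27 in HM_DFX50, 19.2 in LM_DFX50, 21.4 in HM_Ctrl and 14.3 in LM_Ctrl.

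Genes of the ER unfolded protein response, which raises folding capacity when proteins pile up in the ER, ran higher in HM_DFX50, most by less than 2-fold. This list was written after Dnajb9, Calr and other members had been seen among the leading genes, so its counts describe a pattern and are not independent of it. Of 37 members, 11 were higher and 0 lower, against 3.57% and 5.45% of all members, 35 had a ratio above 0, and the median log2 ratio was 0.74. In DMSO 6 were higher, with a median of 0.10. Dnajb9, a co-chaperone of the ER, was at 163 in HM_DFX50, 32 in LM_DFX50, 20.1 in HM_Ctrl and 4.91 in LM_Ctrl, a difference of 5.11-fold (interval 4.8 to 5.44) under DFX. Manf, a factor secreted under ER stress, was at 129 in HM_DFX50, 52.6 in LM_DFX50, 45.7 in HM_Ctrl and 45.3 in LM_Ctrl. Slc35b1, which brings ATP into the ER, was at 44.5 in HM_DFX50, 18.4 in LM_DFX50, 17.9 in HM_Ctrl and 16.8 in LM_Ctrl. For Manf, Slc35b1 and Calr the log2 ratio in DMSO was 0.01, 0.08 and 0.14, and under DFX the HM level was more than 2-fold the LM level. The chaperone Hspa5 (BiP), named after its value was seen, was the most abundant member, at 2052 in HM_DFX50, 1051 in LM_DFX50, 472 in HM_Ctrl and 469.8 in LM_Ctrl, a log2 ratio of 0.97 just short of the 2-fold line. Xbp1, a transcription factor of the response, was at 81.2 in HM_DFX50 and 34.1 in LM_DFX50 (1.23). Ddit3 (CHOP), the death-related factor, was near equal under DFX (148 against 111, log2 ratio 0.41) and far apart in DMSO (79.8 against 6.05, 3.52).

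The ER stress response element, taken as CCAAT, any 9 bases and CCACG on either strand, was searched in the same windows after the list had been written. It was in 8 of 31 promoters found for the list (25.8%), in 5 of 217 of those of the genes higher in HM_DFX50 (2.30%), in 0 of 389 of those lower, and in 14 of all 8227 (0.17%). The 5 are Calr, Creld2, Hsp90b1, Pdia6 and Syvn1, all members of the list, so the 2.30% is not separate from the list's own share. The 220 bases before the start of Calr (chr8:84846932-84847151, minus strand), Creld2 (chr15:88819426-88819645, plus strand) and Hsp90b1 (chr10:86705445-86705664, minus strand) are given, with the element in capitals, since they belong to the genes called higher.
Calr: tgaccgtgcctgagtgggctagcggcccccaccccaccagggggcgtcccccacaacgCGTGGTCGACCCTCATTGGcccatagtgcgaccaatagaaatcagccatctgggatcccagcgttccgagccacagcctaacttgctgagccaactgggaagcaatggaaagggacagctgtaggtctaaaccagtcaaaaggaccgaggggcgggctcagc
Creld2: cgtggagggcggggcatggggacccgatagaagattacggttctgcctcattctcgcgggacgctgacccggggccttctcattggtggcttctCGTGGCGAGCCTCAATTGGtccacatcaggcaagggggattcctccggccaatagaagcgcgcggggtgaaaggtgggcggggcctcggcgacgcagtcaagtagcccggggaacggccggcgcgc
Hsp90b1: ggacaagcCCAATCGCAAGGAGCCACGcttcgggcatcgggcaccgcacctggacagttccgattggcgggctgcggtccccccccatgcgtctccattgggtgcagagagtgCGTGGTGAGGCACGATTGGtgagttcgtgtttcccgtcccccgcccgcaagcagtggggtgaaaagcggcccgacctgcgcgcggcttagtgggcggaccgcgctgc
Creld2 encodes an ER protein with disulfide isomerase activity, and its FPKM was 76.6 in HM_DFX50, 36.2 in LM_DFX50, 26.9 in HM_Ctrl and 30.4 in LM_Ctrl. Hsp90b1, the ER member of the HSP90 family, was at 372 in HM_DFX50, 180.0 in LM_DFX50, 196 in HM_Ctrl and 186 in LM_Ctrl. In all 3 genes HM_DFX50 held the highest of the 4 values. The element is not in the window of Dnajb9, the member with the largest ratio.

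**Figure D4:**
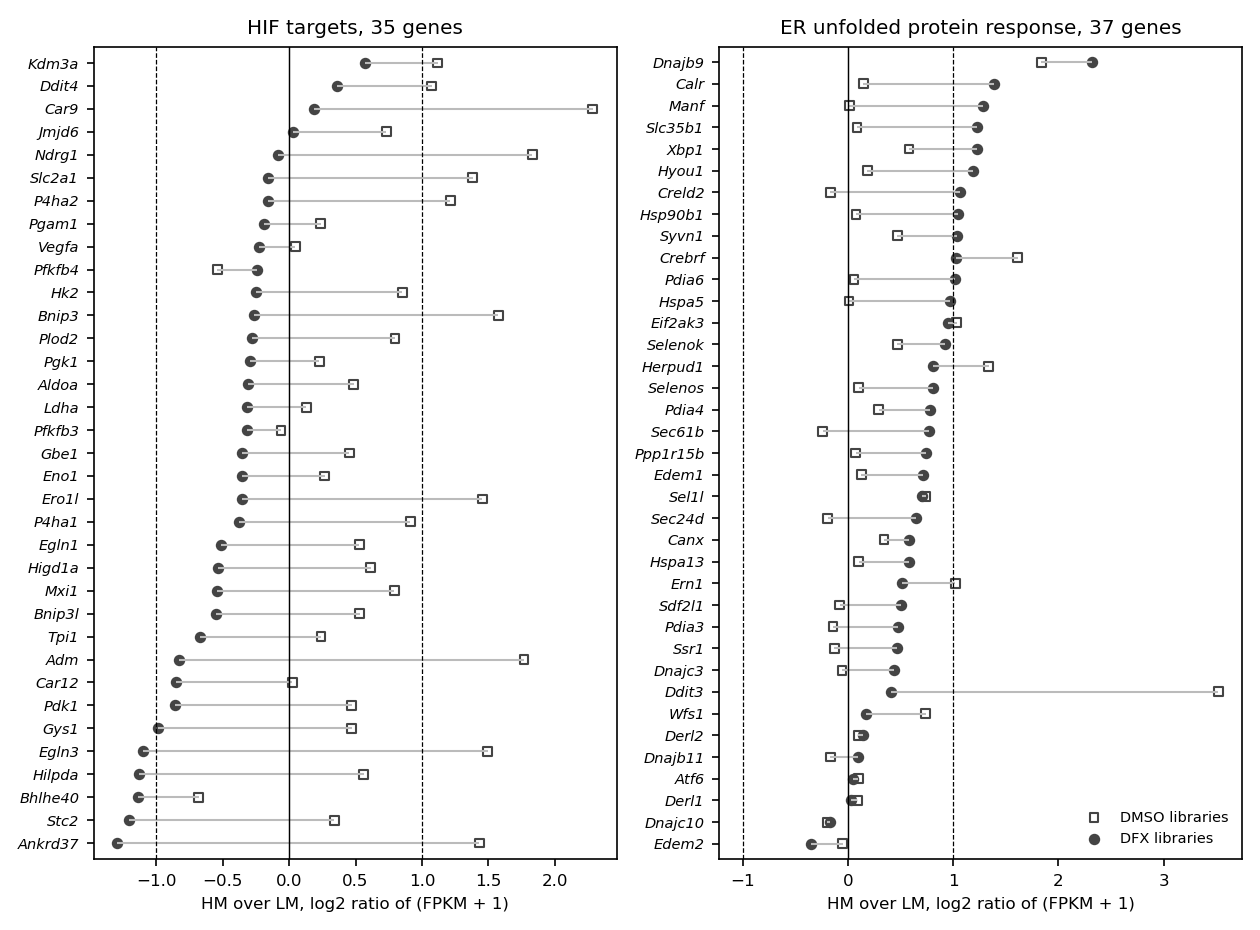
Log2 ratio of FPKM + 1, HM over LM, for 35 of the 36 HIF targets (left) and 37 genes of the ER unfolded protein response (right); filled circles are the DFX and open squares the DMSO libraries, the solid line marks 0 and dashed lines 2-fold. On the left the circles lie left of the squares in 34 of the 35 genes, and on the right 35 of 37 circles lie right of 0.

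Heat shock proteins, the chaperones that refold proteins after stress, had a median log2 ratio of 0.54 (5 higher and 0 lower of 17), against -0.01 in DMSO. The list holds Hspa5 and Hsp90b1 as well. Hspa1b, the stress-inducible HSP70, was at 51.2 in HM_DFX50, 17.8 in LM_DFX50, 18.2 in HM_Ctrl and 5.62 in LM_Ctrl, Hsph1, its exchange factor, at 34.9 in HM_DFX50, 13.6 in LM_DFX50, 54.5 in HM_Ctrl and 23.7 in LM_Ctrl, and the constitutive Hspa8 at 299 in HM_DFX50, 133 in LM_DFX50, 440.1 in HM_Ctrl and 401 in LM_Ctrl. Hspa1b and Hsph1 were HM genes in both states, and Hspa8 was below its DMSO level in both clones, further in LM. Hspa1b and Hspa8 share 68.1% and 44.8% of their words with other genes. The small heat shock protein Cryab was at 7.86 in HM_DFX50 and 2.87 in LM_DFX50 (1.19, DMSO 1.10).

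Targets of ATF4, which answers a lack of amino acids and other stress, were divided. Of 29 members, 5 were higher and 4 lower, with a median of 0.19 (DMSO 0.29). The higher ones included Slc7a11, the cystine carrier, at 13.2 in HM_DFX50, 5.73 in LM_DFX50, 2.57 in HM_Ctrl and 1.52 in LM_Ctrl, Slc7a3, a carrier of basic amino acids, at 2.19 in HM_DFX50, 0.326 in LM_DFX50, 0.284 in HM_Ctrl and 0.101 in LM_Ctrl, and Sesn2, a stress sensor upstream of mTORC1, at 22.1 in HM_DFX50, 8.84 in LM_DFX50, 26.1 in HM_Ctrl and 7.48 in LM_Ctrl. Among the lower ones was Cth, which makes cysteine from cystathionine, at 6.34 in HM_DFX50, 26.7 in LM_DFX50, 4.71 in HM_Ctrl and 16.9 in LM_Ctrl. The clones thus differed in the same direction in both states for Cth and Sesn2. Of 24 p53 targets 3 were higher and none was lower (median 0.14, DMSO 0.07). They were Sesn2, the kinase Plk3 at 107 in HM_DFX50, 46.9 in LM_DFX50, 51.4 in HM_Ctrl and 14.7 in LM_Ctrl, and Trp53inp1 at 11.3 in HM_DFX50, 3.26 in LM_DFX50, 4.27 in HM_Ctrl and 0.304 in LM_Ctrl. All 3 were higher in HM in DMSO too, and by more. Their log2 ratios in that order were 1.67, 1.74 and 2.01 in DMSO, against 1.23, 1.18 and 1.53 under DFX. In DMSO 4 of the list were higher and 1 lower. Cdkn1a (p21), named after its value was seen, was at 84.5 in HM_DFX50 and 61.3 in LM_DFX50.

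Immediate early genes and feedback genes of the MAPK pathway, which cells switch on within minutes of a growth or stress signal, had calls in both directions. Of 32 members, 9 were higher and 2 lower in HM_DFX50, against 3.57% and 5.45% of all members (median 0.49, DMSO 0.27 with 5 higher and 0 lower). Fosb, a subunit of the AP-1 transcription factor, was at 6.08 in HM_DFX50, 1.12 in LM_DFX50, 2.09 in HM_Ctrl and 1.99 in LM_Ctrl, and the HM_DFX50 value stood alone. The zinc finger factor Klf2 was at 17.2 in HM_DFX50, 6.38 in LM_DFX50, 10.2 in HM_Ctrl and 6.61 in LM_Ctrl. Dusp1, a phosphatase that ends MAPK signals, was at 52 in HM_DFX50, 20.9 in LM_DFX50, 7.2 in HM_Ctrl and 2.71 in LM_Ctrl, and Ier3, an early gene of survival signals, at 388 in HM_DFX50, 161 in LM_DFX50, 273 in HM_Ctrl and 114 in LM_Ctrl. For Dusp1 and Ier3 the gap was much the same in DMSO (1.14 and 1.25, against 1.28 and 1.26 under DFX). The AP-1 subunits Jun (225 against 93.7, log2 ratio 1.26) and Junb (107 against 45.3, 1.22), named after their values were seen, were also higher, and Junb had been lower in HM in DMSO (-0.94). The lower members were Spry1, a feedback inhibitor, at 3.11 in HM_DFX50 and 8.41 in LM_DFX50 and the factor Etv4 at 8.61 in HM_DFX50 and 18.3 in LM_DFX50. The AP-1 motif TGANTCA was in 6.91% of promoters of genes higher in HM_DFX50, 7.71% of those lower and 4.75% of all 8227, and in 0 of the 24 of this list. It was in 10 of the 36 of the interferon-stimulated genes (27.8%) and in 6 of the 31 of the ER unfolded protein response (19.4%). The CRE motif TGACGTCA was in 3 of those 24 (12.5%) and in 3.48% of all.

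Many epithelial adhesion genes were lower in HM_DFX50. Of 20 integrin and laminin members, 8 were lower and 1 higher, against 5.45% and 3.57% of all members, with a median of -0.68 (DMSO -0.20, 6 lower). Without the limit of FPKM 1 the median was -0.36. Chains of laminin, which anchors epithelium to its basement membrane, were among them. Lamb3 (ENSMUSG00000026639; mm10 chromosome 1, 193207699 to 193343878) was at 7.07 in HM_DFX50, 61.2 in LM_DFX50, 9.42 in HM_Ctrl and 42.5 in LM_Ctrl, and the LM level under DFX was 8.66-fold (interval 8.0 to 9.38) that of HM. Lama3 was at 0.901 in HM_DFX50, 8.0 in LM_DFX50, 0.728 in HM_Ctrl and 5.0 in LM_Ctrl. For Lamb3 and Lama3 both HM values were below both LM values. Itga2, a collagen receptor chain, was at 5.14 in HM_DFX50, 27.5 in LM_DFX50, 9.11 in HM_Ctrl and 25.3 in LM_Ctrl, and Itgb2, the beta chain known from leukocytes, at 0.433 in HM_DFX50, 6.53 in LM_DFX50, 8.47 in HM_Ctrl and 19.8 in LM_Ctrl. The beta chain Itgb4, of a laminin receptor, named after its value was seen, was equal in DMSO (33.7 against 33) and lower in HM under DFX (8.61 against 20.6, -1.17). The member that was higher was Itga8 (2.15 against 0.0868), also higher in DMSO (3.10). Itgb1, the common beta chain, did not reach 2-fold (177 against 254, -0.52).

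Of 28 junction genes, 6 were lower and 0 higher, against 5.45% and 3.57% of all members, with a median of -0.68 (DMSO -0.23). Besides Sfn these included the tight junction proteins Cldn4 (11.3 in HM_DFX50, 43.2 in LM_DFX50, 18 in HM_Ctrl and 43.2 in LM_Ctrl) and Tjp3 (0.115 in HM_DFX50 and 2.28 in LM_DFX50). The desmosomal cadherin Dsc2 was listed at 0 in both HM libraries and at 1.66 in LM_DFX50. Over the 14 epithelial markers FPKM summed to 637 in HM_DFX50, 1195 in LM_DFX50, 1904 in HM_Ctrl and 2449 in LM_Ctrl, so that the sum was lower with DFX in both clones and lowest in HM_DFX50. Krt8 and Krt18, keratins of simple epithelium, make up most of it. Of the 11 markers that are members 4 were lower and 0 higher (median -0.70, DMSO -0.07), and the splicing regulator Esrp1 ran the other way, at 9.23 against 5.81 (0.59). Krt8 was at 134 in HM_DFX50, 339 in LM_DFX50, 593 in HM_Ctrl and 963 in LM_Ctrl (log2 ratio -1.33), with 36% of its words shared with other genes, and its partner Krt18 at 251 in HM_DFX50, 499 in LM_DFX50, 773 in HM_Ctrl and 933 in LM_Ctrl (-0.99). Krt14, of basal cells, was at 1.9 in HM_DFX50, 10.4 in LM_DFX50, 2.48 in HM_Ctrl and 54.3 in LM_Ctrl, with 28.2% of words shared. The other simple keratins Krt7 and Krt19 were near equal under DFX, at 32.9 against 36.6 and 87.9 against 103, and Krt19 was higher with DFX than without in LM (46.4 in LM_Ctrl). The 11 mesenchymal members had 2 lower, Snai1 (5.84 in HM_DFX50 and 13.1 in LM_DFX50), a repressor of E-cadherin, and Sparc (12.8 in HM_DFX50 and 38.8 in LM_DFX50), a matrix glycoprotein, and none was higher (median -0.54).

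Matrix lists had medians below 0 in HM_DFX50, and these depended on the limit of FPKM 1. Without that limit the median was -0.10 for collagen chains, -0.02 for proteases and -0.25 for other secreted matrix genes. Of 11 collagen chains 4 were lower, among them Col18a1 (17.5 in HM_DFX50 and 46.6 in LM_DFX50) of basement membranes, Col6a1 (0.97 in HM_DFX50 and 4.82 in LM_DFX50) and Col12a1 (2.19 in HM_DFX50 and 8.06 in LM_DFX50), and Col11a2 was higher (4.27 in HM_DFX50 and 0.93 in LM_DFX50), with a median of -0.78 and, in DMSO, 3 lower and 1 higher. Of 32 proteases and inhibitors 8 were lower and 4 higher (median -0.26), against 5 and 4 in DMSO. Next to Mmp9, Plau, the urokinase that activates plasminogen, was at 10.3 in HM_DFX50, 36.7 in LM_DFX50, 70.5 in HM_Ctrl and 132 in LM_Ctrl, and the membrane proteases Adam8 and Adam12 were at 1.98 against 10 and 0.599 against 4.27. Plau was thus lower under DFX in both clones, and further so in HM. Of 22 other secreted matrix genes 4 were lower and none higher, with a median of -0.40 and, in DMSO, 7 lower and a median of -0.44: the cross-linking enzyme Tgm2 (5.44 against 16.3), Ecm1 (22.6 against 53.4), Fbln2 (17.5 against 39.8) and Sparc.

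The genes the study had followed at the protein level separated the clones little in RNA under DFX. The study had come to the PI3K-AKT pathway from RNA of these clones. It used KEGG enrichment of genes higher in HM than LM without drug and lower in HM with DFX. The comparison here is another contrast with a list of core genes, and that enrichment was not repeated. Of 37 core genes of the PI3K-AKT-mTOR pathway 2 were higher and 1 lower, with a median of 0.21 (DMSO 0.10). The kinase Akt1 was at 44 in HM_DFX50, 65.6 in LM_DFX50, 123 in HM_Ctrl and 189 in LM_Ctrl, a log2 ratio of -0.57 under DFX and -0.62 in DMSO. Mtor was at 8.47 in HM_DFX50 and 6.58 in LM_DFX50 and Rps6kb1, which encodes p70S6K, at 12.4 in HM_DFX50 and 8.71 in LM_DFX50. The called members were the adapter Irs2, at 15.4 in HM_DFX50, 5.49 in LM_DFX50, 7.74 in HM_Ctrl and 16.1 in LM_Ctrl, the mTORC1 regulator Akt1s1 (PRAS40), at 53.3 in HM_DFX50, 25.6 in LM_DFX50, 25.8 in HM_Ctrl and 17.4 in LM_Ctrl, and the PI3K regulatory subunit Pik3r5, at 1.93 in HM_DFX50 and 5.77 in LM_DFX50. For Irs2, HM had the lower value in DMSO and the higher under DFX. The stemness factors Myc (231 against 196, 0.23) and Klf4 (62.1 against 42.9, 0.52) and the repair enzyme Parp1 (18.6 against 26.4, -0.48) were within 2-fold. Protein and phosphorylation were not measured in these files.

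Of the genes that handle iron none was called between the chelated clones, with 0 higher and 0 lower of 21, against 3.57% and 5.45% of all members. At these shares a list of this size would hold few calls, so the absence of calls says little. The median was -0.08 (DMSO -0.07), and in DMSO 2 were higher in HM and 0 lower. The transferrin receptor Tfrc, whose mRNA is protected when iron is low, was at 175 in HM_DFX50, 188 in LM_DFX50, 102 in HM_Ctrl and 107 in LM_Ctrl. Its level was higher under DFX than in DMSO in both clones and near equal between them. Slc11a2, the iron importer DMT1, was at 9.98 in HM_DFX50, 12.8 in LM_DFX50, 6.22 in HM_Ctrl and 7.52 in LM_Ctrl. The ferritin heavy chain Fth1, named after its value was seen, was at 1587 against 1552. The highest ratio was that of the heme oxygenase Hmox1, at 169 against 86.1 (0.97), and the lowest that of Steap2, a metalloreductase (2.32 against 5.55, -0.98), both just short of 2-fold. With 0.1 in place of 1 added to FPKM 2 members were called lower, and with the libraries scaled by median ratios 1 was called higher. Some metal genes outside iron were called. Of 14 metallothionein, zinc and copper genes 4 were higher and 1 lower, against 3.57% and 5.45% of all members. The higher ones were Mt2, Mt1 (299 against 128), the zinc exporter Slc30a1 (7.69 against 1.82) and Slc39a6 (45.9 against 18.6), and the lower one was Slc39a4. In DMSO 2 of the list were higher and 1 lower, with log2 ratios of 2.15 for Mt2 and -4.23 for Slc39a4.

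Most genes of division had ratios below 0. The counts called lower are read beside the 5.45% of all members, and that of the mitosis genes is near this share. Of 48 DNA replication genes 1 was lower, the thymidine kinase Tk1 (3.71 in HM_DFX50, 11.3 in LM_DFX50, 28.9 in HM_Ctrl and 41.4 in LM_Ctrl), and of 56 mitosis genes 3 were, the phosphatase Cdc25b (5.1 in HM_DFX50, 19.4 in LM_DFX50, 31.5 in HM_Ctrl and 32.8 in LM_Ctrl), Cenpm (1.8 against 5.9) and Spc24 (8.58 against 18.3) of the kinetochore. The medians were -0.27 and -0.36 (DMSO -0.38 and -0.16), and under DFX 34 of the 48 and 45 of the 56 ratios were below 0. Cdc25b was equal in DMSO and was lower under DFX in both clones, by far more in HM. Nuclear genes of the respiratory chain had a median of -0.40 (54 of 58 below 0 and 1 called lower, Ndufv3 at 12.9 against 28.9), whereas those encoded in mitochondria had 0.24. Over 5 even groups of the 10287 protein-coding members by exon length, the median log2 ratio went from -0.23 in the shortest (median length 1590 bases) to 0.07 in the longest (9259 bases) under DFX, and from -0.07 to 0.13 in DMSO. Of the lists just named, the nuclear respiratory chain genes are short (median 1292.5 bases) and kept to that order. The mitochondrially encoded genes are short too (784 bases) and did not. The replication and mitosis genes are of middle length (4045 and 4520 bases). Whether length had a part in these medians was not tested.

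Secreted signals were mixed. Of 17 cytokines 3 were higher, Tslp, Il11 (11.9 in HM_DFX50, 5.02 in LM_DFX50, 1.96 in HM_Ctrl and 0.727 in LM_Ctrl) of the IL-6 family and the KIT ligand Kitl (26.4 in HM_DFX50, 12.5 in LM_DFX50, 10 in HM_Ctrl and 3.56 in LM_Ctrl), and 1 was lower, Il18 (1.15 against 3.99). Of 11 chemokines the neutrophil attractant Cxcl5 was higher (7.77 in HM_DFX50, 1.62 in LM_DFX50, 17.1 in HM_Ctrl and 6.55 in LM_Ctrl), and Cx3cl1 (3.61 against 10.4) and the interferon-inducible Cxcl11 (1.17 against 3.84, 42.2% of words shared) were lower. Of 6 innate defense genes 3 were lower, complement C3 (4.83 in HM_DFX50, 21.6 in LM_DFX50, 6.36 in HM_Ctrl and 23.4 in LM_Ctrl), Wfdc2 (34.3 against 88.1) and the protease inhibitor Slpi (5.55 against 12.6). None of 24 NF-kappaB subunits and feedback genes was called. The NF-kappaB motif, GGGA, any base and TTTCC, was in 1.54% of promoters of genes lower in HM_DFX50, in 0 of the 217 of those higher and in 0.413% of all. The list's median of -0.06 turned to 0.01 when the libraries were scaled to their 75th percentiles.

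Of 31 genes of cholesterol and fatty acid synthesis 2 were lower, a share near the 5.45% of all members, and the median was -0.31 (DMSO 0.01). The 2 were Pmvk (14.1 in HM_DFX50, 41.6 in LM_DFX50, 26.8 in HM_Ctrl and 45.1 in LM_Ctrl) and Dhcr7 (3.58 in HM_DFX50, 9.01 in LM_DFX50, 16.8 in HM_Ctrl and 18.5 in LM_Ctrl), both enzymes of the sterol branch. Of 26 genes of NRF2 and of the defense against ferroptosis, an iron-dependent death, Slc7a11 alone was higher and none lower (median -0.14). None of 17 CDK inhibitors and G1 cyclins was called (median -0.29). The 13 factors of mammary lineages gave 2 higher and 1 lower, the 20 Wnt genes 2 and 3, and the 12 Notch genes 1 and 1.

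Among developmental signals the clearest clone genes were there in both states. Ntn1, the guidance cue netrin-1, was at 4.31 in HM_DFX50, 0.051 in LM_DFX50, 12.3 in HM_Ctrl and 0.0709 in LM_Ctrl, and Jag2, a Notch ligand, at 9.89 in HM_DFX50, 1.19 in LM_DFX50, 13.1 in HM_Ctrl and 1.65 in LM_Ctrl. Sfrp1, a secreted Wnt inhibitor, was at 2.88 in HM_DFX50 and 10.6 in HM_Ctrl and listed at 0 in both LM libraries. All were genes of the HM clone. Fzd5, a Wnt receptor, was at 10.6 in HM_DFX50, 3.11 in LM_DFX50, 3.03 in HM_Ctrl and 2.19 in LM_Ctrl, so that HM_DFX50 stood alone. Of 33 guidance genes 2 were higher and 4 lower (median -0.49), the latter with the receptor Epha1 (0.443 against 3.04) and Sema6b (1.49 against 5.43). Of 16 G protein signaling genes 2 were higher and 6 lower, and next to Rgs16 and Ptges the cyclooxygenase Ptgs1 was at 5.32 against 15.6. Of 26 TGF-beta and BMP genes 3 were lower, with the ligands Tgfb1 (4.75 against 10.7) and Bmp7 (5.02 against 13.2) and the activin trap Fstl3 (6.32 against 26.6, 46.7% of words shared), and Id2 was higher (11.6 against 3.38). Areg, an EGF receptor ligand, was lower (37.6 against 83.5), as were Hes1 (4.48 against 10.8) and Hoxa5 (3.41 against 9.86).

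**Figure D5:**
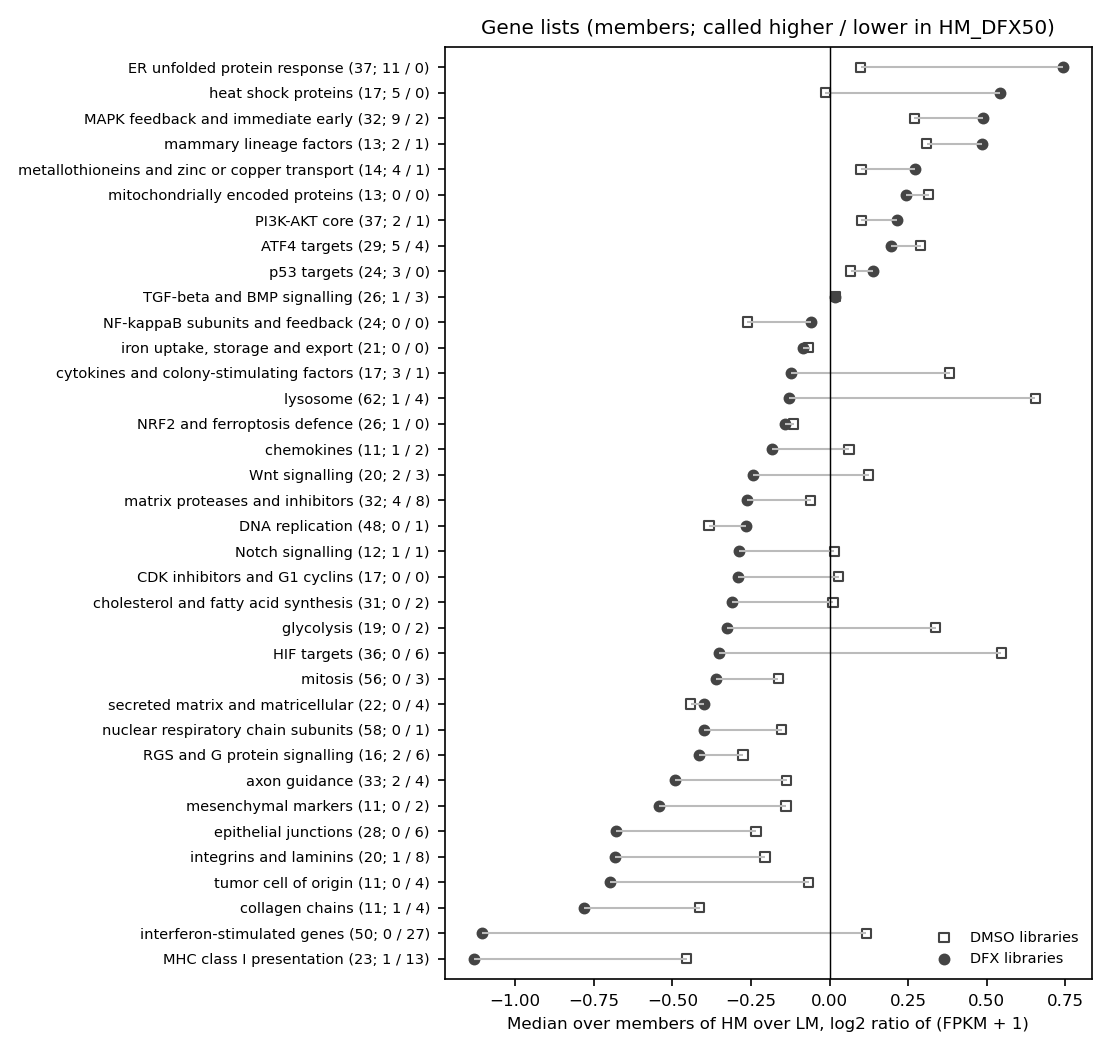
Median log2 ratio of FPKM + 1, HM over LM, for each gene list with at least 10 members, in the DFX (filled circles) and DMSO libraries (open squares); the brackets give members and the numbers called higher and lower in HM_DFX50. The lowest circles are those of the MHC class I list (-1.13) and the interferon-stimulated genes (-1.11), and the highest is that of the ER unfolded protein response (0.74). Several lists cross from the right of 0 to the left, among them lysosome, HIF targets, glycolysis and the interferon-stimulated genes.

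Beyond the lists, genes within 2-fold in DMSO and called under DFX were found in both directions. In the class lower under DFX and within 2-fold in DMSO, 377 of 456 were protein-coding, and the median log2 ratio of DFX over DMSO was -0.77 in HM and 0.14 in LM. In the class higher under DFX and within 2-fold in DMSO, 178 of 304 were protein-coding, and the medians were 1.08 in HM and 0 in LM. By these medians the HM library moved more in both classes. Since the classes were formed on the same DFX libraries, the medians are a description. Eya2, a transcription coactivator and phosphatase, was at 1.88 in HM_DFX50, 12.8 in LM_DFX50, 15.5 in HM_Ctrl and 14.2 in LM_Ctrl, the 3 other libraries being alike. Misp, an actin-bundling protein of the spindle, at 6.21 in HM_DFX50, 28.9 in LM_DFX50, 8.43 in HM_Ctrl and 9.69 in LM_Ctrl, and Mpp2, a membrane scaffold, at 2.72 in HM_DFX50, 14.9 in LM_DFX50, 2.91 in HM_Ctrl and 2.35 in LM_Ctrl, had their highest value in LM_DFX50 instead. Of the higher genes Dido1, a chromatin protein, was at 11.1 in HM_DFX50, 3.55 in LM_DFX50, 6.53 in HM_Ctrl and 6.61 in LM_Ctrl, and Procr, the protein C receptor and a mammary stem cell marker, at 36.3 in HM_DFX50, 15 in LM_DFX50, 21.5 in HM_Ctrl and 24.1 in LM_Ctrl. For Dido1 and Procr the level was higher under DFX in HM and lower in LM. The factor Sox4 was at 41.9 in HM_DFX50, 16.2 in LM_DFX50, 73.2 in HM_Ctrl and 55.5 in LM_Ctrl, with 54.7% of its words shared with other genes.

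The DMSO differences that were no longer called under DFX were more of the HM-high kind. Of the 374 genes higher in HM_Ctrl, 256 were within 2-fold under DFX, and their median log2 ratio of DFX over DMSO was 0.81 in LM and -0.19 in HM. Of the 296 lower in HM_Ctrl, 115 were within 2-fold under DFX, with medians of -0.87 in LM and 0.01 in HM. As both classes were formed on the same libraries that give the medians, these medians too are only a description. Klf4, Ddit3, Ndrg1 and Car9, given with their values in the 4 libraries or the DFX pair above, belong to the first of these classes.

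Long noncoding genes were read with more doubt, since many overlap other genes. Gm26917, which overlaps ribosomal RNA repeats, was at 1188 in HM_DFX50, 271 in LM_DFX50, 83.8 in HM_Ctrl and 39.5 in LM_Ctrl. Gm45371 (10.5 against 2.39) lies within Zfp703 on the other strand and shares 93.5% of its words. Gm4189 (6.95 against 2.01) and Gm8066 (10.2 against 3.77) were higher, with under 100 fragments in either library. The lower ones were 2010204K13Rik (1.67 in HM_DFX50, 8.28 in LM_DFX50, 2.49 in HM_Ctrl and 8.95 in LM_Ctrl), also lower in DMSO, C330006A16Rik (3.53 against 10.7), Gm13056 (2.84 against 8.91), Gm13203 (1.74 against 5.8) and Gm13822 (1.21 against 5.68). Of 245 genes for small RNAs among the members 112 were called, with a median of 3 fragments.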

How the data were processed

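The members, lists and settings were chosen with earlier results of these data known. The authors made directional libraries from poly(A)-selected RNA and deposited FPKM per gene without pooling. The submitters' processing notes name FastQC, Trimmomatic, HISAT2, featureCounts and mm10. Versions and the strand setting of the counting are not given in the sources used here, and depletion of ribosomal RNA is also mentioned. The study called genes with edgeR, which needs counts and was not repeated on FPKM from 1 library per condition.

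From the deposited FPKM, log2 ratios of FPKM + 1 were taken with Python 3.11.15, numpy 2.4.6, pandas 2.3.3 and scipy 1.17.1, and genes were called at 2-fold. GENCODE M21 places 45125 genes at the same coordinates. Multiplying by its exon lengths and the library size, or with a length solved from the values, gave whole fragments (within 0.02) for 99.6% of members, which add up to at least 99.7% of each library. They were used for depth and counting error and not for a test. For genes named by rule, the share of 31-base words found in other genes is given beside ratios where it is above 20%. It was not computed for genes named after their values were seen. The call was also run on simulated fragments. These held counting error and no spread between cultures, so they cannot check a call between clones with 1 library each.

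Genes were named by rule: the 15 largest ratios each way among protein-coding genes with FPKM of at least 10, up to 4 called members per list, every marker and every gene the study followed, 6 each way called under DFX with a DMSO ratio under 0.5, 6 with opposite calls, and 5 long noncoding genes each way. Others, in particular further members of a list beside these, were named after their values were seen. The ER unfolded protein response list and its promoter element were added after values were seen. Some genes that the rule names are not reported here.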

Additional observations from a re-analysis of the deposited data

Results flagged for a closer look

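Genes were picked out where the clones stood at least 2-fold apart in opposite directions with and without DFX, by the size of the smaller difference. These differences were not tested, since each state had 1 library per clone. Slfn2, an interferon-inducible Schlafen gene, had a log2 ratio of -1.56 under DFX and 1.56 in DMSO. Nptx1, a secreted pentraxin, had -1.65 and 1.48, and Ankrd37, a HIF target, -1.29 and 1.43. Slfn2, Nptx1 and Ankrd37 were thus higher in HM without the drug and higher in LM with it. The small RNA genes Snora73b (1.52 under DFX and -1.52 in DMSO), Mir343 (1.51 and -1.72) and Gm23130 (1.35 and -1.50) turned the other way. Snora73b rested on 13 and 4 fragments in HM_DFX50 and LM_DFX50, Gm23130 on 10 and 5 and Mir343 on 2 and 0, and the whole length of Gm23130 lies within Rps12. All 31-base words of Snora73b and Gm23130 are shared with other genes, and 21.4% of those of Ankrd37. Of the 31 genes with opposite calls 20 were small RNA genes and 9 were protein-coding. Of the protein-coding ones, Ccnb1ip1, named after its value was seen, was higher in HM under DFX (log2 ratio 1.41) and lower in DMSO (-1.04).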

How the results depend on the processing

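No paired analysis was possible because each condition had 1 library and the labels carry no replicate numbers. The counts in the report are, in order, 419 genes higher in HM_DFX50, 101 of them higher in DMSO and 318 not, 640 lower, 167 of them lower in DMSO and 473 not, and 31 with opposite calls. At a 1.5-fold line these became 1212, 365, 847, 1804, 489, 1315 and 125, and at 4-fold 36, 8, 28, 59, 21, 38 and 1. With 0.1 in place of 1 added to FPKM, 708 genes were higher and 1017 lower, 272 and 262 of them in DMSO too, 755 were lower under DFX but not in DMSO, and 83 had opposite calls. With protein-coding genes alone 268 were higher, 179 of them not in DMSO, and 9 had opposite calls. Opposite calls numbered 18 with a mean FPKM of at least 1, and, in alternatives chosen after seeing the data, 9 with at least 10 fragments, 11 where the counting interval left out equality and 11 without small RNA genes. Of the values at other settings for these counts and the median, 61 stayed within 1.5 times or 0.1 and 27 moved. Scaling by median ratios shifted the median of all genes by 0.04, to -0.02, and no list median changed sign. Of 44 list medians, 1 changed sign at the 75th percentile (NF-kappaB). Of the list counts at other settings 840 stayed and 128 moved, 47 of these at a 1.5-fold line, 50 at 4-fold and 19 with 0.1 added to FPKM, where lower members went from 4 to 8 in both the lysosome and the guidance list and lists with none called gained 1 or 2 (iron 2, CDK inhibitors and G1 cyclins 1 each way, NF-kappaB 1 higher). Of the list medians 26 moved by over 0.1, 18 of them without the limit of FPKM 1, where besides the matrix and integrin lists junction genes went to -0.46, mesenchymal markers to -0.09 and guidance genes to -0.30. The medians of the interferon, MHC class I, HIF and ER unfolded protein response lists were not among those 18. Of the values of single named genes 88 moved beyond their counting interval, 60 of them with 0.1 added. No called gene named by rule turned round. Depth limits the small RNA genes most. Counting intervals do not cover the spread between cultures, which 1 library per condition leaves unknown.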
